A study of Homo sapiens with 18 samples.

Results

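The proteasome is the barrel-shaped protease that breaks down proteins tagged with ubiquitin. Its genes were taken as the protein-coding genes of the RefSeq annotation of GRCh38.p14 whose symbol is PSMA, PSMB, PSMC, PSMD, PSME or PSMF followed by a number. There were 44 of them among 20056 protein-coding genes, 19 of the core particle (PSMA and PSMB), 24 of the regulatory particles (PSMC, PSMD and PSME) and PSMF1, an inhibitor. Wild-type MYC had 23 RNA peaks in 18 of the 44 genes (40.9%), where 6.78% of all protein-coding genes held a peak. The MYC mutant 3A had 1 peak in 1 of them, PSMA7 (2.27%, against 0.359% of all). The mutant 7A had none, against 0.269% of all. The lists differ greatly in length, with 2149 peaks for wild type, 103 for 3A and 88 for 7A. Most of the wild-type peaks lay just inside the start of the gene. A summit within 500 bp of an annotated start, a measure chosen after seeing the data, was held by 15 of the 18 genes (83.3%). Over all protein-coding genes that hold a summit it was 69.5%. Counted from the end of the gene span, 13 of the 23 peaks (56.5%) lay within 500 bp, against 42.3% over all protein-coding genes.

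The peaks come from enhanced crosslinking and immunoprecipitation with sequencing (eCLIP), which fixes protein to RNA with ultraviolet light, precipitates the protein and sequences the RNA fragments held by it. U2OS cells, from a human osteosarcoma, had lost their own MYC by knockout and carried a FLAG-tagged MYC under a doxycycline-inducible (Tet-On) system. Every group shares this background, and the labels do not say whether each line is 1 clone, nor which residues 3A and 7A change. For wild type, 3A and 7A there were 2 FLAG precipitates and 1 input after 24 h with doxycycline at 1 µg/mL, and the same numbers after 24 h with phosphate-buffered saline, 18 libraries in all. The files analysed here are 3 peak lists, 1 per allele with doxycycline, of 2149 peaks for wild type, 103 for 3A and 88 for 7A. Peaks of uninduced cells were not analysed here. With 1 list per allele there is no spread between replicates, so no difference between alleles or gene groups was tested. The depth behind the lists is unknown, and a deeper library can give a longer list. Each fold enrichment and each −log10 q is the authors' value for that peak and ranks peaks only within its own list. RNA levels were not measured in these files, so the cell type could not be checked by expression. Of 8 genes listed for the osteoblast lineage and osteosarcoma cells, 1 (VIM) held a wild-type peak and 1 (SPARC) held 7A peaks. The VIM peak was weak, with a fold enrichment of 1.97 at rank 2142 of 2149. None of 8 markers of other tissues held a peak in any list. Over all protein-coding genes 6.78% held a wild-type peak and 0.269% a 7A peak. Sets of 8 genes are too small to set these counts apart, and they do not check the cell type.

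MYC is a transcription factor that binds DNA with its partner MAX at the letters CACGTG, the E-box, and raises the transcription of many genes of growth and metabolism. The core particle of the proteasome stacks rings of alpha and beta subunits, and the protein cutting takes place inside the beta rings. Regulatory particles sit on its ends, recognise ubiquitin, unfold the substrate with a ring of ATPases and feed it into the core. When proteasome activity falls, the transcription factor NFE2L1 raises the subunit genes together through antioxidant response elements in their promoters.

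The starts of the genes are shown first, because most of the peaks lie next to them. RefSeq promoter windows of GRCh38.p14, from 250 bases before to 50 bases after the annotated start, were listed for 39 of the 44 genes. PSMA7, PSMB1, PSMB6, PSMB7 and PSMD4 had no listed window. The 250 bases before the start are printed for PSMD9 and PSME3, the genes with both a wild-type peak and a CACGTG, and for PSMA5, where a peak reaches into the window. The spans are chr12:121888540-121888789 on the plus strand for PSMD9, chr17:42833147-42833396 on the plus strand for PSME3 and chr1:109426449-109426698 on the minus strand for PSMA5. They run 5′ to 3′ in the direction of the gene, and capitals mark matches on either strand to CACGTG, to its variant CACGCG, to TGACNNNGC (the core of the antioxidant response element) and to CCGGAAG (the core of sites of the ETS family of factors).
PSMD9: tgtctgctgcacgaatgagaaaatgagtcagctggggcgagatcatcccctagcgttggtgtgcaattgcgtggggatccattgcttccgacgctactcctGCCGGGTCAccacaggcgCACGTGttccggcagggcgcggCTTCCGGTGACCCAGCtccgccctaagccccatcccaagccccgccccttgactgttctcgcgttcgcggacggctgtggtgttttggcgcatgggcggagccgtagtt
PSME3: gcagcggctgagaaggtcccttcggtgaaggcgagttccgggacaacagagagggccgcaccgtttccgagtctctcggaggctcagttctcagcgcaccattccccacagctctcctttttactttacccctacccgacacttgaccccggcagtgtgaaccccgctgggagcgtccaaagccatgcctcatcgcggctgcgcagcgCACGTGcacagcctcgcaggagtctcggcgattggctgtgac
PSMA5: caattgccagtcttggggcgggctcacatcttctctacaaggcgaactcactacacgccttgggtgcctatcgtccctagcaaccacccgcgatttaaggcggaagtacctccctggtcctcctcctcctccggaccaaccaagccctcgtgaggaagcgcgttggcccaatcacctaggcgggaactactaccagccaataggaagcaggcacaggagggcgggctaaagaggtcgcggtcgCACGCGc
The CACGTG began at position -131 from the start of PSMD9 and at -42 from the start of PSME3, and the CACGCG of PSMA5 began at -7, counted back from the base before the start. In PSMD9 a CCGGAAG on the minus strand and a TGACNNNGC lie side by side and share 1 capital run. These are matches of letters and were not tested as sites.

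The first transcribed bases of 1 gene with a listed window were covered by a peak. At PSMA5 the wild-type peak reached bases 30 to 50 after the start, chr1:109426399-109426419, shown here with GTGAGT, the letters with which many introns begin, in capitals.
PSMA5: GTGAGTtggctgccgGTGAGT
On the sense strand GTGAGT lay in the first 50 bases of 2 of 15 listed proteasome genes with a wild-type peak (PSMA5 and PSMC5) and 1 of 24 without (PSMA6). It lay there in 2.70% of the 15843 protein-coding genes with a listed window and in 3.42% of those with a wild-type peak. The peak of PSMC5 lay far from these bases, with its summit 3464 bp from the nearest listed start. Whether the peaks cover exons or introns is not known, since the annotation used here gives neither.

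Among the letters searched in the whole 300-base windows, CACGTG was found in 3 of 39 proteasome genes (7.69%), PSMB3, PSMD9 and PSME3. It was found in 10.9% of all protein-coding genes with a listed window and in 16.6% of those with a wild-type peak. Among proteasome genes with a wild-type peak it was found in 2 of 15 (13.3%). CACGCG was found in 5 of 39 (12.8%) against 18.1% of all and 28.0% of all with a wild-type peak, and in 2 of 15 proteasome genes with a peak. The response element letters TGACNNNGC were found in 13 of 39 (33.3%) against 17.9% of all, at the same share in genes with a peak (5 of 15) and without (8 of 24), where 19.5% of all protein-coding genes with a wild-type peak held them. CCGGAAG, chosen after the sequences had been read, was found in 14 of 39 (35.9%) against 16.5% of all, in 7 of 15 genes with a peak (46.7%) and 7 of 24 without. Over all protein-coding genes with a wild-type peak it was 27.3%. A gene with several windows counts once where any of them holds the letters, and no test was made of these shares.

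A wild-type peak was present in 18 of the 44 proteasome genes (40.9%), where 6.78% of all protein-coding genes had one. Among the 16644 protein-coding genes whose span is within the range of the proteasome genes it was 7.24%. The genes with a peak spanned a median of 15305 bp and those without 14030 bp, a difference of medians that is small beside the range of 1849 to 138787 bp. How abundant these messages were is unknown, and its part in the count was not tested. The 3A list had 1 of 44 (2.27%) where the background was 0.359%, and the 7A list had 0 of 44 where it was 0.269%. The core particle held a wild-type peak in 6 of 19 genes (31.6%) and the regulatory particles in 11 of 24 (45.8%), and this difference was not tested. The 19 core genes include 5 forms of particular tissues or of cytokine treatment, none with a peak. The other core genes held a peak in 2 of 7 of the alpha ring and 4 of 7 of the beta ring. With peaks below the list's median fold enrichment left out, the regulatory count fell to 6 (25.0%) and the core count to 5 (26.3%). The share over all protein-coding genes was then 3.94%.

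**Figure D1:**
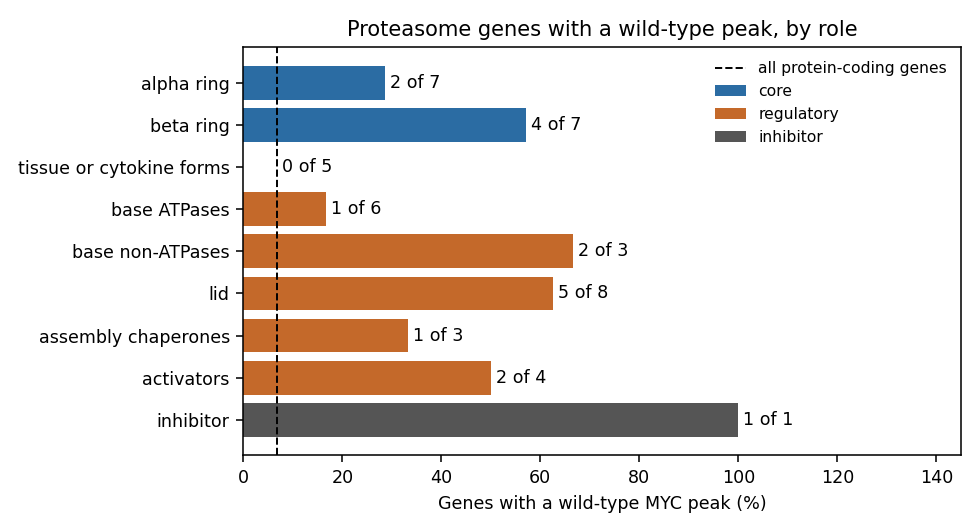
Share of proteasome genes with at least 1 wild-type MYC peak, in percent, for each role, with the number of genes on each bar and the share of all protein-coding genes (6.78%) as a dashed line. The lid stands at 5 of 8 and the beta ring at 4 of 7, while the base ATPases have 1 of 6 and the tissue or cytokine forms none.

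In the alpha ring, which gates the entry to the core, 2 of 7 genes held a wild-type peak, where 6.78% of all protein-coding genes did. PSMA7, a ring subunit, had the peak of highest −log10 q among the proteasome genes. It lay at chr20:62143180-62143404 and reached a fold enrichment of 20.7 at a −log10 q of 92.3, which is rank 77 by fold and 69 by −log10 q of the 2149 wild-type peaks. This peak began 10 bp before the annotated end of the span, which is the start of the gene, and its summit lay 147 bp inside. A second PSMA7 peak, at chr20:62139738-62139875, had its summit 3578 bp from the start, near the middle of the gene, with a fold enrichment of 10.6 at a −log10 q of 46.0. PSMA5, also a ring subunit, had 1 peak at chr1:109426277-109426419, with a fold enrichment of 16.0, a −log10 q of 40.8 and its summit 106 bp from the start. Both genes therefore carried their peak at the start, and all 3 alpha ring peaks lay above the wild-type list's medians of 8.11 for fold enrichment and 17.8 for −log10 q. PSMA1, PSMA2, PSMA3, PSMA4 and PSMA6 had no peak in any list.

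In the beta ring 4 of 7 genes held a wild-type peak, where 6.78% of all protein-coding genes did. PSMB5, the chymotrypsin-like subunit that is the target of bortezomib, had 3 peaks. The peak at the start, at chr14:23034669-23034810, had a fold enrichment of 14.1, a −log10 q of 34.2 and its summit 161 bp from the nearest of its annotated starts. The next, at chr14:23033369-23033650, had the highest fold enrichment of the 3 (16.0) and a −log10 q of 30.8. The last, at chr14:23026070-23026316, lay at 96.7% of the span with a fold enrichment of 4.82 at a −log10 q of 7.80. PSMB5 thus had its stronger peaks nearer the start and a weak one near its end. PSMB6, the caspase-like catalytic subunit, had a single peak at chr17:4798053-4798153 (fold enrichment 9.79, −log10 q 18.3) at 82.9% of its span and none at the start. PSMB7, the trypsin-like catalytic subunit, had none. Of the non-catalytic subunits, PSMB1 had a peak at chr6:170553102-170553289 with a fold enrichment of 11.8, a −log10 q of 33.1 and its summit 97 bp from the start. PSMB2 had 1 at chr1:35641299-35641461 with lower values (fold enrichment 7.18, −log10 q 16.0) and its summit 119 bp from the start. PSMB3 and PSMB4 had no peak.

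The forms of the core made in particular tissues or after cytokine had no peak in any list. These are PSMB8, PSMB9 and PSMB10, which replace the catalytic subunits in the immunoproteasome, PSMB11 of the thymus and PSMA8 of the testis. They are 5 of the 13 core genes without a wild-type peak. Over all protein-coding genes 6.78% held a wild-type peak, 0.359% a 3A peak and 0.269% a 7A peak. A set of 5 genes is too small to tell 0 from these shares.

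In the base of the main regulatory particle, 1 of 6 PSMC genes and 2 of 3 PSMD genes held a wild-type peak. Over all protein-coding genes 6.78% held one. A start peak was found in PSMD2 alone, where 69.5% of all protein-coding genes that hold a summit had one within 500 bp of a listed start. Sets this small cannot be set apart from these shares. Of the 6 ATPases that unfold the substrate, PSMC5 was the one with a wild-type peak. It lay at chr17:63831120-63831252, at 81.8% of the span, with a fold enrichment of 10.6 at a −log10 q of 20.6. PSMC1, PSMC2, PSMC3, PSMC4 and PSMC6 had none. The large scaffold subunits PSMD1 and PSMD2 each had 1 peak. The PSMD2 peak, at chr3:184299297-184299405, had a fold enrichment of 7.14, a −log10 q of 26.4 and its summit 105 bp from the start. The PSMD1 peak, at chr2:231161409-231161533, lay at 90.2% of the span, 104589 bp from the start, with a fold enrichment of 10.1 at a −log10 q of 11.0. PSMD4, a ubiquitin receptor, had no peak.

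The lid, which removes ubiquitin chains, held wild-type peaks in 5 of 8 genes, where 6.78% of all protein-coding genes held one. By the nearest listed start, each of the 5 had a summit within 500 bp of its start. Over all protein-coding genes that hold a summit this share was 69.5%, and 5 genes are too few to set apart from it. PSMD7, the partner of the deubiquitinating subunit, had the highest fold enrichment of all proteasome peaks. It lay at chr16:74296870-74297030, with a fold enrichment of 23.0 (rank 48 of the wild-type list), a −log10 q of 72.6 and its summit 133 bp from the start. PSMD14, the deubiquitinating enzyme itself, had a weaker peak at chr2:161308487-161308627 (fold enrichment 6.47, −log10 q 15.6), with its summit 147 bp from the start. These partners thus carried peaks at like positions but at opposite sides of the list's median fold enrichment. PSMD8, a lid subunit, had its peak at chr19:38374826-38374957 (fold enrichment 13.9, −log10 q 25.6), with the summit 311 bp from the start, the farthest of the start peaks. PSMD6, another lid subunit, had 1 at chr3:64023257-64023411 (fold enrichment 7.31, −log10 q 9.88), 161 bp from its annotated transcript start and 674 bp from the end of its span. PSMD3, also a lid subunit, had 3 peaks on chromosome 17 that ran from the start to the end of the gene. Their fold enrichments were 5.71 at the start, 6.43 at 52.6% and 4.20 at 99.0% of the span, all below the median of the list. Their −log10 q values were 21.2, 7.94 and 6.74, so the start peak was the best supported of the 3. The summit of the middle peak also lies in LOC124904000, so its gene is uncertain. PSMD11, PSMD12 and PSMD13 had no peak.

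**Figure D2:**
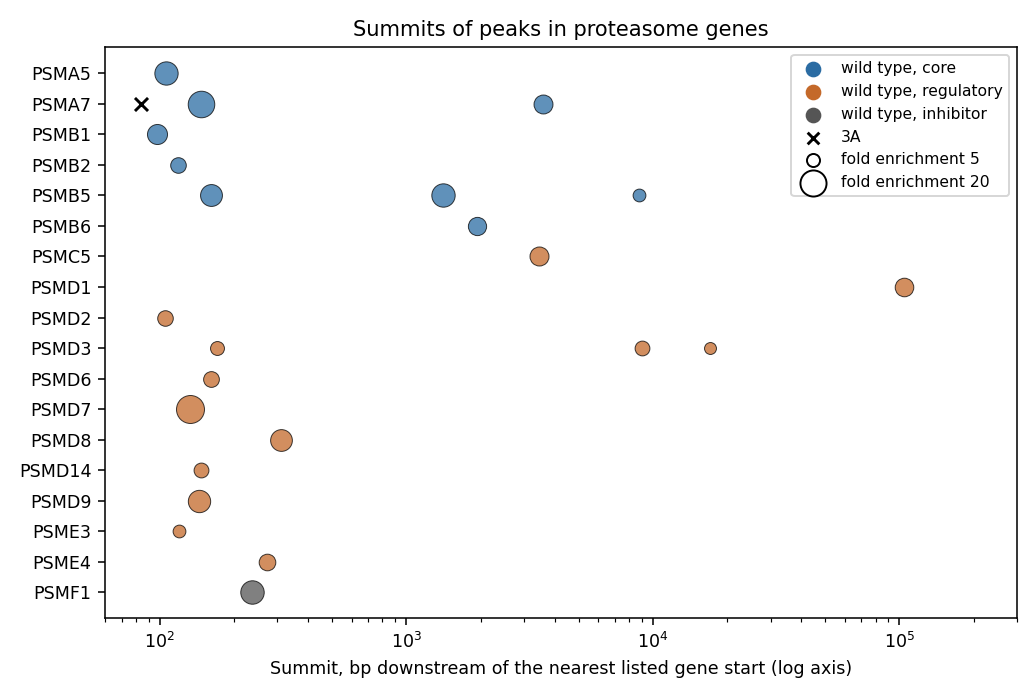
Summits of all peaks in proteasome genes by distance in bp from the nearest annotated start (log axis), 1 row per gene, with the area of a circle giving the fold enrichment and colour the particle; the cross is the 3A peak. The wild-type summits gather between 97 and 311 bp in 15 genes, and the other 8 peaks lie farther inside 6 genes.

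Of the chaperones that help build the base, PSMD9 had a wild-type peak and PSMD5 and PSMD10 had none. The PSMD9 peak, at chr12:121888851-121888979, had a fold enrichment of 14.7, a −log10 q of 24.4 and its summit 144 bp from the start printed above. Of the activators, which open the core without ubiquitin, PSME3 and PSME4 had peaks. PSME3, the nuclear form, had its peak at chr17:42833461-42833688 with a fold enrichment of 4.81, a −log10 q of 12.8 and its summit 120 bp from the start. PSME4, an activator known from histone breakdown, had its peak at chr2:53970660-53970787 with a fold enrichment of 8.15, a −log10 q of 34.7 and its summit 272 bp from the start. PSME1 and PSME2, the interferon-induced forms, had none. PSMF1, the inhibitor, had a peak at chr20:1118745-1118903 with a fold enrichment of 16.2 at a −log10 q of 27.5. It lay 237 bp from the second of the annotated starts and 5576 bp from the end of the span.

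Among the 18 genes with a peak, most shared its position. The 15 summits near a start lay 97 to 311 bp downstream of it with a median of 147 bp. A summit was assigned to the gene whose span holds it, which leaves little room for upstream positions. The near edge of these peaks lay a median of 64 bp inside the gene, from 10 bp before the start at PSMA7 to 255 bp after it at PSMD8. Over all protein-coding genes the 938 wild-type summits within 500 bp of a listed start had a median distance of 130 bp and quartiles of 99 and 194 bp, so the proteasome median lay inside the quartiles of the whole list. Between 100 and 200 bp downstream lay 11 of the 15 proteasome summits (73.3%) and 49.8% of the 938, a difference that was not tested. By gene, 15 of 18 proteasome genes with a peak (83.3%) had a summit near a start, where it was 897 of 1290 (69.5%) over all protein-coding genes that hold a summit.

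**Figure D3:**
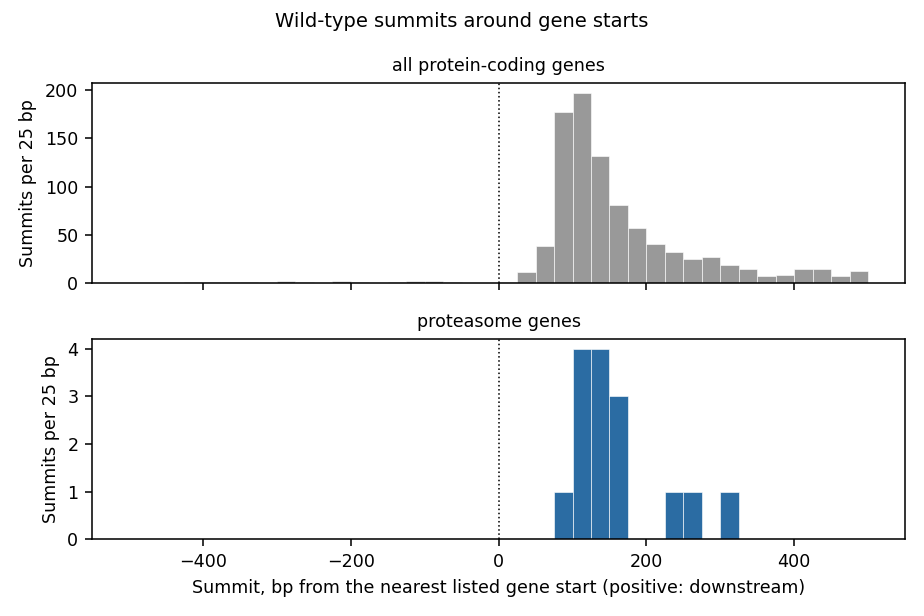
Number of wild-type summits per 25 bp around the nearest annotated gene start, for all protein-coding genes (top) and for proteasome genes (bottom); positive distances are downstream. In both panels most summits lie downstream of the start, and 12 of the 15 proteasome summits fall between 75 and 175 bp.

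Measured from the end of the gene span, 13 of the 23 wild-type peaks (56.5%, 95% Wilson interval 36.8 to 74.4) had the summit within 500 bp of the start, against 42.3% of 1978 wild-type peaks in protein-coding genes. The interval includes the value of all genes. It covers counting error over peaks only, and peaks of 1 gene are not independent. In the first 5th of the span lay 16 of the 23 summits (69.6%, interval 49.1 to 84.4), against 50.8% of the 1978 over all protein-coding genes. Between the first and the last 5th lay 2 (8.70%, 95% Wilson interval 2.42 to 26.8) against 28.6%. In the last 5th lay 5 (21.7%, interval 9.66 to 41.9) against 20.7%. The middle share rests on 2 peaks, 1 of them the PSMD3 peak of uncertain gene. No test was made of these shares. All 19 peaks in proteasome genes of listed strand lay on the strand of the gene, as did 97.3% of such peaks over all protein-coding genes.

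The strength of the proteasome peaks spread over most of the wild-type list. Their fold enrichments ran from 4.20 to 23.0 with a median of 10.1, and 14 of 23 lay above the list's median of 8.11. Their −log10 q ran from 6.74 to 92.3 with a median of 24.4, and 15 of 23 lay above the list's median of 17.8. Among the 10% of wild-type peaks with the highest fold enrichment (at least 16.1) there were 3, in PSMA7, PSMD7 and PSMF1. The 15 peaks at starts had a median fold enrichment of 11.8 and the 8 others 9.97, with ranges that overlap (4.81 to 23.0 and 4.20 to 16.0). Widths ran from 101 to 304 bp with a median of 143 bp, against 165 bp for the list. Several peaks in a gene were found at 3 of the 18 genes (16.7%), PSMA7, PSMB5 and PSMD3, and at 29.6% of all protein-coding genes with a wild-type peak.

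**Figure D4:**
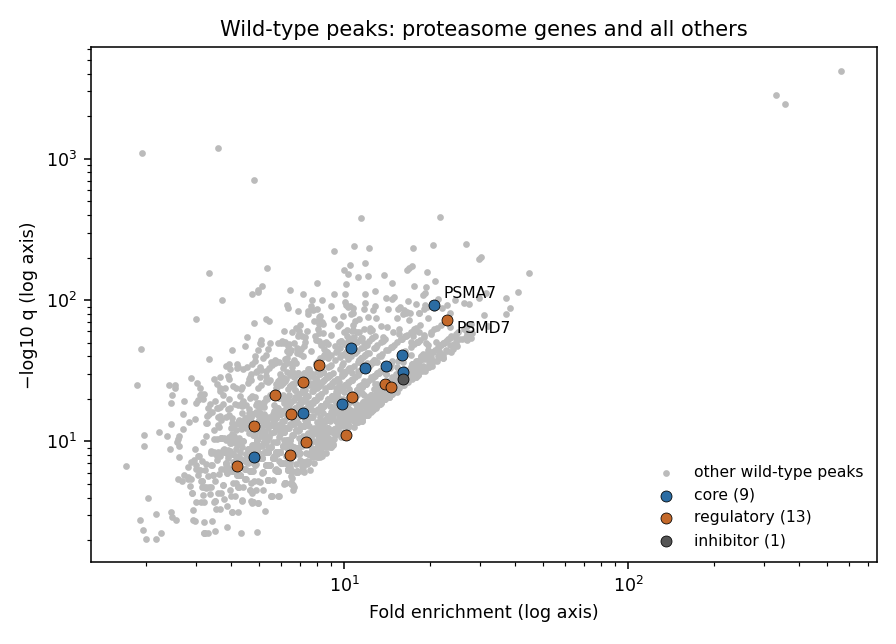
Fold enrichment against −log10 q of each wild-type peak (both axes logarithmic), with peaks in core, regulatory and inhibitor genes of the proteasome coloured and all other peaks in grey. Proteasome peaks run from 4.20 to 23.0 in fold enrichment, and those of PSMA7 and PSMD7 stand highest.

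Between alleles, PSMA7 was the proteasome gene with a peak in more than 1 list. Its 3A peak lay at chr20:62143204-62143344, with a fold enrichment of 4.81 at a −log10 q of 16.5, which is rank 60 by fold of the 103 3A peaks. All 141 bp of it lay within the wild-type peak at the start of the gene, on the same strand, and covered 62.7% of that peak. The summits were 63 bp apart, with the 3A summit 84 bp from the start. It dropped out when only 3A peaks at or above that list's median fold enrichment (5.54) were kept. Proteasome genes held 1.07% of wild-type peaks (23 of 2149, 95% Wilson interval 0.714 to 1.60) and 0.971% of 3A peaks (1 of 103, interval 0.172 to 5.30). The intervals cover counting error over peaks only, and peaks of 1 gene are not independent. The 3A share rests on 1 peak, and no difference between alleles was tested. The lists differ greatly in length, so counts of genes are also given at equal length. Whether the allele or the depth sets the length cannot be told apart here and was not tested. Keeping the highest-ranked peaks is also not the same as sequencing less. When the wild-type list was reduced to its 103 peaks of highest −log10 q, as many as 3A had, it held 1 proteasome gene, PSMA7, where 0.364% of all protein-coding genes had a peak. Reduced to the 103 of highest fold enrichment it held 2, PSMA7 and PSMD7, where the background was 0.439%. The 88 peaks that match the length of the 7A list gave the same genes under each ranking, with backgrounds of 0.324% and 0.369%. At equal length the wild-type count was thus 1 or 2 by the measure that ranks the peaks, beside 1 for 3A and 0 for 7A.

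Copies of these genes elsewhere in the genome limit how surely a peak can be placed. The annotation holds 51 pseudogenes of 20 of the 44 genes, led by PSMC1 with 13 and PSME2 with 6. At least 1 pseudogene was annotated for 6 of the 18 genes with a wild-type peak (33.3%) and for 14 of the 26 without (53.8%). Pseudogenes of other genes were not counted, so these shares have no background, and their difference was not tested. The share of all annotated pseudogenes that hold a peak is not given here, so the next count has no background either. Of the 51 pseudogenes 1 held a peak. This was PSMA2P3 in KIAA2012 on chromosome 2, where a wild-type peak at chr2:202179310-202179457 (fold enrichment 6.81, −log10 q 6.11) overlapped the pseudogene by 114 bp, while PSMA2 itself had no peak. Whether reads were shared between copies was not tested.

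Of 40 further genes that serve the proteasome or bring ubiquitin to it, 16 held a wild-type peak (40.0%, where 6.78% of all protein-coding genes did), a share close to that of the subunits. None held a 3A or 7A peak, where 0.359% and 0.269% of all protein-coding genes did. A set of 40 genes is too small to tell 0 from these shares. Among the assembly factors, PSMG1 had a start peak with a fold enrichment of 15.5 and its summit 115 bp from the start and PSMG3 had 1 peak with 9.70. ADRM1, a ubiquitin receptor of the base, had 3 peaks with a highest fold enrichment of 10.0. RPS27A, which encodes ubiquitin fused to a ribosomal protein, had a peak with a fold enrichment of 6.08. KPNA2, an importin, had 3 peaks with a highest fold enrichment of 11.7. Single peaks lay in the ubiquitin ligase gene UBE3A (6.13) and in UBE3C (7.89), another ligase gene, where the peak also lies in the pseudogene RPS27AP12. The ubiquitin-activating enzyme gene UBA1 (4.48) and FAF1 (5.27), a ubiquitin-binding cofactor of the unfoldase VCP, had 1 peak each. RAD23B, a shuttle that carries ubiquitinated proteins to the proteasome, had 2 peaks with a highest fold enrichment of 6.35. NFE2L1, the factor that raises the subunit genes, had 1 peak with a fold enrichment of 5.53, below the median of the list.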

How the data were processed

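RNA bound by FLAG-tagged MYC was measured by eCLIP in U2OS cells. Per the submitters' processing notes, cutadapt, BWA and MACS2 were used with the build hg38; no version, setting or control, and no statement on pooled replicates, is given in the sources read here. The deposited values are narrowPeak lists, 1 per allele. The authors' fold enrichment is a ratio over a control that is not named, and the deposited −log10 q is the authors' adjusted value. Neither was compared between lists.

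Starts were turned to 1-based positions. Groups follow the sample titles. A peak was counted for a gene when at least 1 bp overlapped its RefSeq span (GRCh38.p14). The gene strand and the annotated starts came from the RefSeq promoter table; a gene not listed there took the strand of its peak and the end of its span. Shares of peaks within 500 bp of a start used the end of the span or, where said, the nearest listed start, and took for each summit the shortest protein-coding gene holding it. Every proteasome gene with a peak and the further pathway genes of highest fold enrichment, up to 12, were named, except 1 that is not reported here. The genes, lists and rules were chosen with earlier results of these data known. Depth is unknown. The overlap code was tested on simulated data. Python 3.11.15, pandas 2.3.3, NumPy 2.4.6, SciPy 1.17.1 and matplotlib 3.10.9 were used.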

Additional observations from a re-analysis of the deposited data

How the results depend on the processing

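Of 49 alternative values of the counts, shares and medians above, 35 stayed within 1.5 times the reported count or median or, for the share of peaks at gene starts, within its Wilson interval. A −log10 q of at least 5, the summit in the span and at least 50% of the peak in the span left 18 genes with a wild-type peak. The shortest host gene of the summit and the strand of the gene also left 18. The cut at 5 could remove none of them, since the lowest −log10 q of their peaks was 6.74. PSMA7, PSMB1 and PSMB6 took the strand of their own peak, so the strand rule could not remove them. The 7A count of 0 could not fall and is among the values that stayed. Without the peaks under their list's median fold enrichment there were 12 genes with a wild-type peak (27.3%), 5 of the core and 6 regulatory. The share over all protein-coding genes was then 3.94%. With the same cut 0 genes had a 3A peak, where 0.189% of all protein-coding genes had one. Equal list lengths, chosen after seeing the data, gave the same counts at either length. With peaks ranked by −log10 q they were 1 gene for all members, 1 for the core and 0 for the regulatory particles. With peaks ranked by fold enrichment they were 2, 1 and 1. At these lengths 0.324% to 0.439% of all protein-coding genes had a peak. The share of summits near a start ran from 43.5% within 250 bp to 65.2% with the nearest listed start, also chosen after seeing the data. Over all protein-coding genes these shares were 34.0% and 47.4%. No paired analysis was possible because the lists carry no replicate columns, and no replicate could be left out.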
